A study of Mus musculus with 14 samples.

Results

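The mitochondrial ribosomal protein genes described here are the rows of the count table whose symbol starts with Mrpl (large subunit) or Mrps (small subunit) followed by a digit. Rows named as pseudogenes with "-ps", of which there were 4, were left out. The rule gave 77 genes of the 26683 symbols in the table, and 76 of them passed the filter on low counts and were tested. RNA came from splenic CD4 T cells of female mice aged 8 months. TC mice are the B6.NZM-Sle1NZM2410/AegSle2NZM2410/AegSle3NZM2410/Aeg/LmoJ congenic strain, which carries the lupus susceptibility regions Sle1, Sle2 and Sle3 of NZM2410 mice on a C57BL/6J background. B6 mice are C57BL/6J, without those regions. Follicular helper T cells (Tfh, the T cells that help germinal centre B cells) were sorted as CD44+ CD162lo/- PD-1+, and naive T cells (Tn) as CD44-. There were 3 TC Tfh, 4 B6 Tfh, 3 TC Tn and 4 B6 Tn libraries, and each of the 3 TC and 4 B6 mice gave both cell types. The labels name no treatment. The strains differ at all 3 regions together, so the part of any 1 region cannot be told apart.

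Mitochondria have their own ribosome, which translates the few messages of the mitochondrial genome into core subunits of the respiratory chain and ATP synthase. Its ribosomal RNAs are encoded in the mitochondrion, whereas its proteins are encoded in the nucleus, made in the cytosol and imported. Some of these proteins have a counterpart in bacterial ribosomes and others are found only in mitochondria. T cells that leave the naive state enlarge their mitochondria and their respiratory capacity, and CD4 T cells of lupus-prone mice are known for raised glycolysis and respiration.

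Library totals ran from 15162309 to 20191558 counts, so that 3 counts equalled a level (CPM, counts scaled to the library total) of 0.149 to 0.198 CPM. Markers went with the titles: 7 Tfh genes (Pdcd1, Cxcr5, Bcl6, Icos, Il21, Cd44 and Tox2) summed to 2410 to 2780 CPM in TC Tfh, 2770 to 3110 CPM in B6 Tfh, 130 to 140 CPM in TC Tn and 120 to 146 CPM in B6 Tn. GEO's source field calls the naive samples Tfh, against their titles and these markers. Other marker lists moved with the groups, and of all their genes only Cd8a was at 0 in a whole group, in both Tfh groups. The 7 B cell genes summed to 153 to 180 CPM in TC Tfh, 217 to 235 CPM in B6 Tfh, 3.75 to 5.1 CPM in TC Tn and 8.65 to 17.3 CPM in B6 Tn. The 3 regulatory T genes summed to 1460 to 1690 CPM in TC Tfh, 1090 to 1440 CPM in B6 Tfh, 54.3 to 64.9 CPM in TC Tn and 70.4 to 98.7 CPM in B6 Tn. They did not move together between the Tfh groups. Ikzf2 averaged 1130 CPM in TC Tfh and 816 CPM in B6 Tfh, Foxp3 338 and 324 CPM, and Il2ra 66.2 and 86.5 CPM. The 4 cycling genes summed to 72.9 to 85.3 CPM in TC Tfh, 75 to 105 CPM in B6 Tfh, 8.64 to 13.4 CPM in TC Tn and 12.1 to 15.1 CPM in B6 Tn. The 5 naive T genes summed to 3750 to 3960 CPM in TC Tn and 4800 to 5770 CPM in B6 Tn. The 3 myeloid genes summed to 0.114 to 0.473 CPM in TC Tfh, 2.25 to 10.6 CPM in B6 Tfh, 4.67 to 5.24 CPM in TC Tn and 6.59 to 11.7 CPM in B6 Tn. The noncoding RNA Gm26917 averaged 404 CPM in TC Tfh, 44.1 CPM in B6 Tfh, 509 CPM in TC Tn and 86.1 CPM in B6 Tn. The part of these differences in the results on the ribosomal protein genes was not tested.

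The 77 genes together made up a smaller share of the counts in TC cells than in B6 cells of the same type. Their summed level averaged 1830 ± 54.2 CPM in TC Tfh (SD, n = 3; range 1775 to 1883) and 2148 ± 105 CPM in B6 Tfh (SD, n = 4; range 2066 to 2299). In Tn it averaged 1955 ± 25.6 CPM in TC (SD, n = 3; range 1926 to 1974) and 2227 ± 45.2 CPM in B6 (SD, n = 4; range 2160 to 2253). No TC library reached the lowest B6 library of its cell type. Tfh lay below Tn without overlap in TC, whereas in B6 the Tfh and Tn libraries overlapped on this scale. In sorted bulk RNA, fewer cells of a type and less RNA per cell cannot be told apart.

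**Figure D1:**
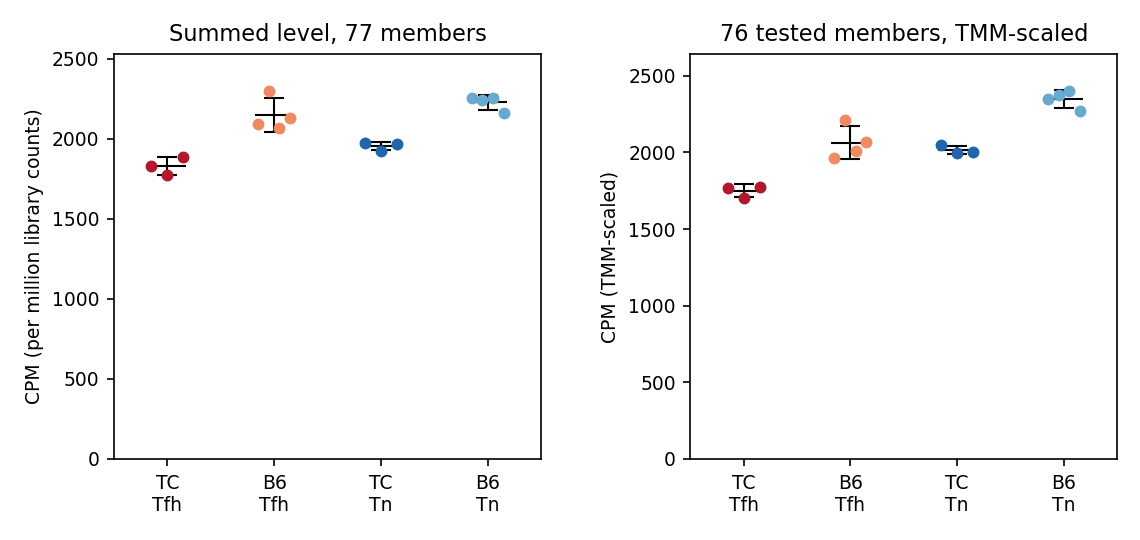
Summed level of the mitochondrial ribosomal protein genes in each library (points), with the mean and SD (bars), as CPM of library totals for all 77 (left) and as CPM scaled by the trimmed mean of M values (TMM) for the 76 tested (right). In both panels the TC libraries lie below the B6 libraries of the same cell type; after TMM scaling the B6 Tfh libraries also lie below the B6 Tn libraries.

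Levels differed widely among the members. Per kilobase of transcript, Mrpl24 (the counterpart of bacterial L24) was highest with a mean level of 114 CPM per kb over all 14 libraries. It stood at 119 ± 3.46 CPM per kb in TC Tfh, 106 ± 3.21 CPM per kb in B6 Tfh, 132 ± 3.63 CPM per kb in TC Tn and 106 ± 3.95 CPM per kb in B6 Tn (SD, n = 3, 4, 3 and 4). Mrpl52, a large-subunit protein found only in mitochondria, came second at 104 CPM per kb over all libraries and was above Mrpl24 in B6 Tfh, at 141 ± 10.8 CPM per kb (SD, n = 4). Mrpl10 (part of the base of the flexible stalk), Mrpl30 and Mrpl33 were next, with mean levels of 74.8, 68.0 and 64.9 CPM per kb. At the low end, Mrps36, Mrpl47 and Mrps25 had mean levels of 4.56, 3.8 and 2.73 CPM per kb. Mrpl53 held 0 to 5 counts per library and was the member that was not tested. Mrps36 is now known as a subunit of the 2-oxoglutarate dehydrogenase complex rather than of the ribosome, and it passed the test in no comparison.

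The first comparison is of TC with B6 mice within each cell type. In TC Tfh, 54 of the 76 tested members were lower and 5 were higher than in B6 Tfh (edgeR's quasi-likelihood test, Benjamini-Hochberg adjusted p under 0.05 over 13427 genes). Over all genes tested, 25.5% were lower and 24.2% were higher. The median log2 fold change was -0.33 over the members and -0.02 over all genes. In TMM-scaled CPM the libraries of the groups did not overlap for 53 members with TC lower and for 4 with TC higher, against 25.9% and 24.3% of all genes.

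In TC Tn, 52 of the 76 members were lower and 6 were higher than in B6 Tn, against 26.1% and 25.9% of all genes (the same edgeR test). The median log2 fold change was -0.32 over the members and -0.01 over all genes. Without overlap, 53 members had TC Tn lower and 5 had TC Tn higher, against 28.1% and 27.4% of all genes. The members lower in TC were largely shared by the cell types: 50 were lower in both, which is 92.6% of the Tfh list and 96.2% of the Tn list. Over all genes tested the shared lower genes were 76.3% of the Tfh list and 74.4% of the Tn list. The Tfh and Tn libraries come from the same mice, so these lists are not independent. No member passed the test in opposite directions in the 2 cell types. Mrpl22, Mrpl27, Mrps6 and Mrps33 were lower in TC Tfh and did not pass in Tn, Mrpl1 and Mrpl35 were lower in TC Tn and did not pass in Tfh, and 13 members passed between the strains in neither direction nor cell type; the 6 were named after their values were seen. Of these calls, that of Mrpl27 was lost without TC Tfh 2 (edgeR adjusted p = 0.074), and that of Mrps33 without TC Tn 2 or any 1 of the Tfh libraries (0.0502 to 0.129). With offsets for transcript length and GC content, Mrpl22, Mrpl27 and Mrps33 no longer passed in Tfh (edgeR adjusted p = 0.0757, 0.161 and 0.215), while Mrpl1 and Mrpl35 passed in Tfh as well (0.0194 and 0.0224).

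Members of both subunits were lower in TC. Of the 49 large-subunit members tested, 38 were lower and 3 were higher in TC Tfh (median log2 fold change -0.35), and 38 were lower and 3 higher in TC Tn (median -0.37). Of the 27 small-subunit members, 16 were lower and 2 were higher in TC Tfh (median -0.30), and 14 were lower and 3 higher in TC Tn (median -0.25). Mrps18a and Mrps30 are counted in the large subunit, where their proteins sit. Members with a bacterial counterpart had 32 of 48 lower and 4 higher in TC Tfh, and 31 lower and 4 higher in TC Tn. Members found only in mitochondria had 22 of 28 lower and 1 higher in TC Tfh, and 21 lower and 2 higher in TC Tn. These classes were not tested against each other. Over all genes tested, 25.5% were lower and 24.2% higher in TC Tfh, and 26.1% and 25.9% in TC Tn.

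**Figure D2:**
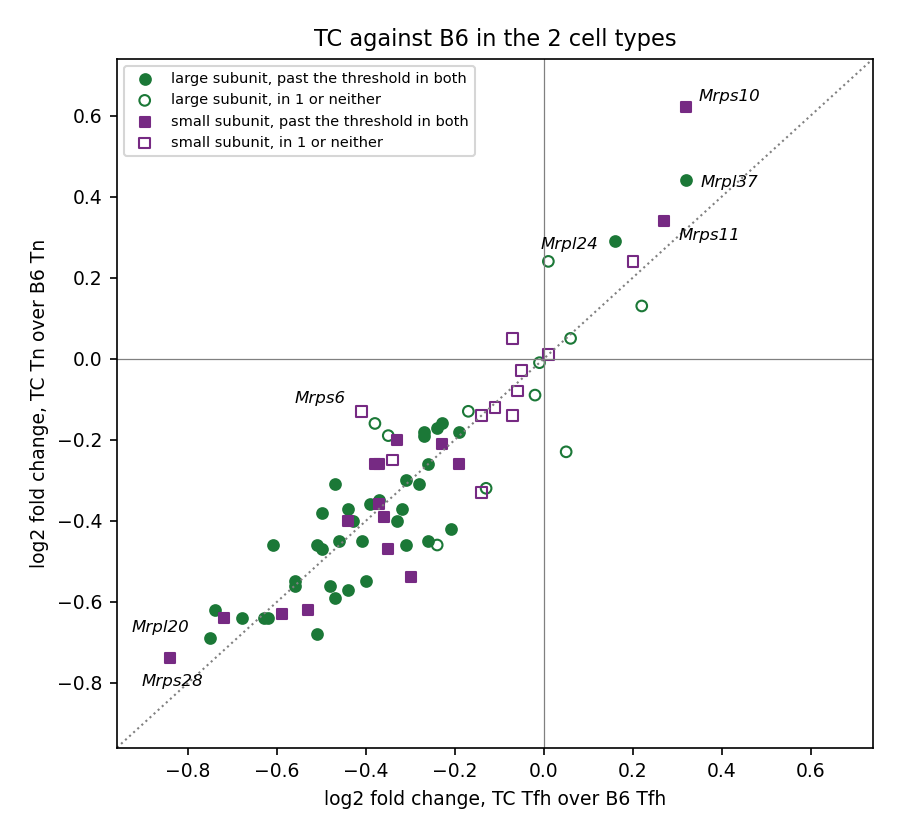
Log2 fold change of each tested member, TC Tfh over B6 Tfh (x axis) and TC Tn over B6 Tn (y axis); circles are large-subunit and squares small-subunit members, filled where both comparisons passed the test in edgeR, and the dotted line marks equal values. The points run along that line, with Mrps28 and Mrpl20 at the lower end and Mrps10, Mrpl37, Mrps11 and Mrpl24 in the upper right.

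Mrps28, the counterpart of bacterial S1 in the small subunit, was the lowest member in TC in both cell types. Its level was 5.02, 3.3 and 3.88 CPM in TC Tfh 1, 2 and 4, against 5.98, 8.71, 7.05 and 7.35 CPM in B6 Tfh 1 to 4. In Tn it was 7.36, 6.82 and 7.53 CPM in TC, against 11.9, 13.1, 11.6 and 10.7 CPM in B6. TC Tfh libraries were thus below every other library, and TC Tn libraries stood at the level of B6 Tfh. The log2 fold change of TC over B6 was -0.84 ± 0.16 (SE) in Tfh, 1.79-fold lower, with an adjusted p of 0.000293 by edgeR. In Tn it was -0.74 ± 0.14, 1.67-fold lower, with an adjusted p of 0.00029 by edgeR. The gene lies at chr3:8802146-8923918 on the minus strand (GRCm38).

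Mrpl20, the counterpart of bacterial L20 in the large subunit, was next. It had 14.8, 16.7 and 13.2 CPM in TC Tfh, against 24.9, 27.5, 23 and 24.1 CPM in B6 Tfh. In Tn it had 18, 16.8 and 16.5 CPM in TC, against 26.4, 26.9, 28.1 and 27 CPM in B6. The strains were well apart in both cell types, at a log2 fold change of -0.75 ± 0.09 in Tfh (edgeR adjusted p = 3.01e-06) and -0.69 ± 0.08 in Tn (edgeR adjusted p = 3.09e-06).

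Mrps14, the counterpart of bacterial S14 in the head of the small subunit, had 18.3, 16.8 and 17.3 CPM in TC Tfh, against 27.9, 32.7, 28.1 and 26.1 CPM in B6 Tfh. The Tn levels were 20.6, 23.9 and 20.9 CPM in TC, against 33.3, 33.5, 33.3 and 32.6 CPM in B6. Again no TC library overlapped B6, and the log2 fold change was -0.72 ± 0.08 in Tfh (edgeR adjusted p = 2.52e-06) and -0.64 ± 0.08 in Tn (edgeR adjusted p = 3.65e-06).

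Mrpl51, a mitochondria-specific protein of the large subunit, had the smallest adjusted p of all members between the strains. It had 17.3, 16.2 and 17.4 CPM in TC Tfh, against 27.8, 28, 27 and 26 CPM in B6 Tfh. In naive cells it had 14.6, 15.7 and 15.5 CPM in TC, against 25.3, 22.9, 22.8 and 22 CPM in B6. The log2 fold change was -0.68 ± 0.07 in Tfh (edgeR adjusted p = 5.91e-07) and -0.64 ± 0.07 in Tn (edgeR adjusted p = 7.32e-07), and Tfh and Tn of a strain did not differ past the threshold. Its promoter window, 300 bases at chr6:125191950-125192249 on the plus strand (RefSeq, GRCm38.p6), is shown because it holds a core site of the ETS family of transcription factors, printed in capitals.
Mrpl51: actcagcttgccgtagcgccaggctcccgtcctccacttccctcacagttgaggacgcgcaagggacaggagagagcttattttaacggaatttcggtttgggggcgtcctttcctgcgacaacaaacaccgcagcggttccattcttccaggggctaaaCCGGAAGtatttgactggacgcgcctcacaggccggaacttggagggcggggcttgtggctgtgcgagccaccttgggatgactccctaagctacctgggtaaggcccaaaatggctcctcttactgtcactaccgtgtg

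The other members among the 6 lowest were Mrpl34 and Mrpl57 in TC Tfh, and Mrpl54, Mrpl17 and Mrpl57 in TC Tn. Mrpl34 and Mrpl17 are counterparts of bacterial L34 and L17, and Mrpl54 and Mrpl57 are mitochondria-specific. Their log2 fold changes in TC over B6 were -0.74 ± 0.10, -0.63 ± 0.10, -0.62 ± 0.10 and -0.51 ± 0.10 in Tfh for Mrpl34, Mrpl57, Mrpl17 and Mrpl54. In Tn they were -0.62 ± 0.10, -0.64 ± 0.10, -0.64 ± 0.10 and -0.68 ± 0.10 in the same order, and each passed the test in both cell types. Of 7 further members singled out by name, 6 were lower in TC in both cell types: Mrpl12, Mrpl44, Mrps12, Mrps16, Mrps22 and Mrps30. The Tfh call of Mrps22 (edgeR adjusted p = 0.0187) was lost without B6 Tfh 1, B6 Tfh 2, TC Tfh 2 or TC Tfh 4 (0.0518 to 0.0896). With length and GC offsets that call was lost too, at a log2 fold change of -0.19 (edgeR adjusted p = 0.106). Mrps12, at the decoding site, had log2 fold changes of -0.53 ± 0.09 in Tfh and -0.62 ± 0.09 in Tn. Mrpl12, the stalk protein that also binds the mitochondrial RNA polymerase, had -0.56 ± 0.10 in Tfh and -0.55 ± 0.09 in Tn. The exception was Mrpl3, the counterpart of bacterial L3, at -0.02 in Tfh (edgeR adjusted p = 0.765) and -0.09 in Tn (edgeR adjusted p = 0.246).

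A small set was higher in TC. Mrpl24, Mrpl37, Mrps10 and Mrps11 were higher in both cell types, Mrpl33 passed the test in Tfh, and Mrpl38 and Mrps5 passed it in Tn. The Tn call of Mrpl38 was lost without B6 Tn 1, B6 Tn 3, TC Tn 1 or TC Tn 2 (edgeR adjusted p 0.0558 to 0.161), and that of Mrps5 without B6 Tn 3 or TC Tn 4 (0.0601 to 0.136). With length and GC offsets both calls were lost (0.0831 and 0.0792), and Mrpl33 and Mrps18b passed as higher in TC Tn instead (edgeR adjusted p = 0.0113 and 0.0467). Without a filter on low counts, 2 members were higher in TC Tfh, against 2916 of the 23821 genes then tested. The Tfh calls of Mrpl24, Mrpl33 and Mrps11 were then lost (edgeR adjusted p = 0.104, 0.0531 and 0.0645). Mrpl37, a mitochondria-specific protein of the large subunit, had 58.1, 62.1 and 62.9 CPM in TC Tfh, against 47.8, 48.2, 47.8 and 50.2 CPM in B6 Tfh. In Tn it had 59.1, 64.4 and 60.6 CPM in TC, against 44.3, 40.3, 46.4 and 45.3 CPM in B6. No library of one strain entered the range of the other, and the log2 fold change was 0.32 ± 0.06 in Tfh (edgeR adjusted p = 0.000148) and 0.44 ± 0.06 in Tn (edgeR adjusted p = 4.66e-06). Of the 7 tested genes within 250 kb of Mrpl37, none was higher in TC in either cell type, while 2 were lower in Tfh and 4 were lower in Tn. Near Mrpl24, 4 of 13 were higher and 3 lower in Tfh, and 5 and 4 in Tn. Near Mrps10, 2 of 7 were higher and 1 lower in Tfh, and 1 and 2 in Tn. Near Mrps11, 1 of 6 was higher and 2 lower in Tfh, and 0 and 2 in Tn. Of all genes, 24.2% were higher and 25.5% lower in TC Tfh, and 25.9% and 26.1% in TC Tn.

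Mrps10, the counterpart of bacterial S10, had 17.4, 20.8 and 19.1 CPM in TC Tfh, against 16, 14.3, 14.6 and 15.9 CPM in B6 Tfh. Naive cells had 22.3, 26.3 and 24.1 CPM in TC, against 15.1, 15.5, 14.1 and 17 CPM in B6. The groups did not overlap, and the log2 fold change was 0.32 ± 0.09 in Tfh (edgeR adjusted p = 0.00501) and 0.62 ± 0.08 in Tn (edgeR adjusted p = 1.1e-05). Mrpl24 had log2 fold changes of 0.16 ± 0.05 in Tfh (edgeR adjusted p = 0.0136) and 0.29 ± 0.05 in Tn (edgeR adjusted p = 0.000101). With no filter on low counts the Tfh value of Mrpl24 was 0.12 with an adjusted p of 0.104 by edgeR. Rrnad1 overlaps Mrpl24 on the opposite strand and was higher in TC as well, at log2 fold changes of 0.54 in Tfh and 0.72 in Tn; whether counts were assigned by strand is not given in the sources used here.

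**Figure D3:**
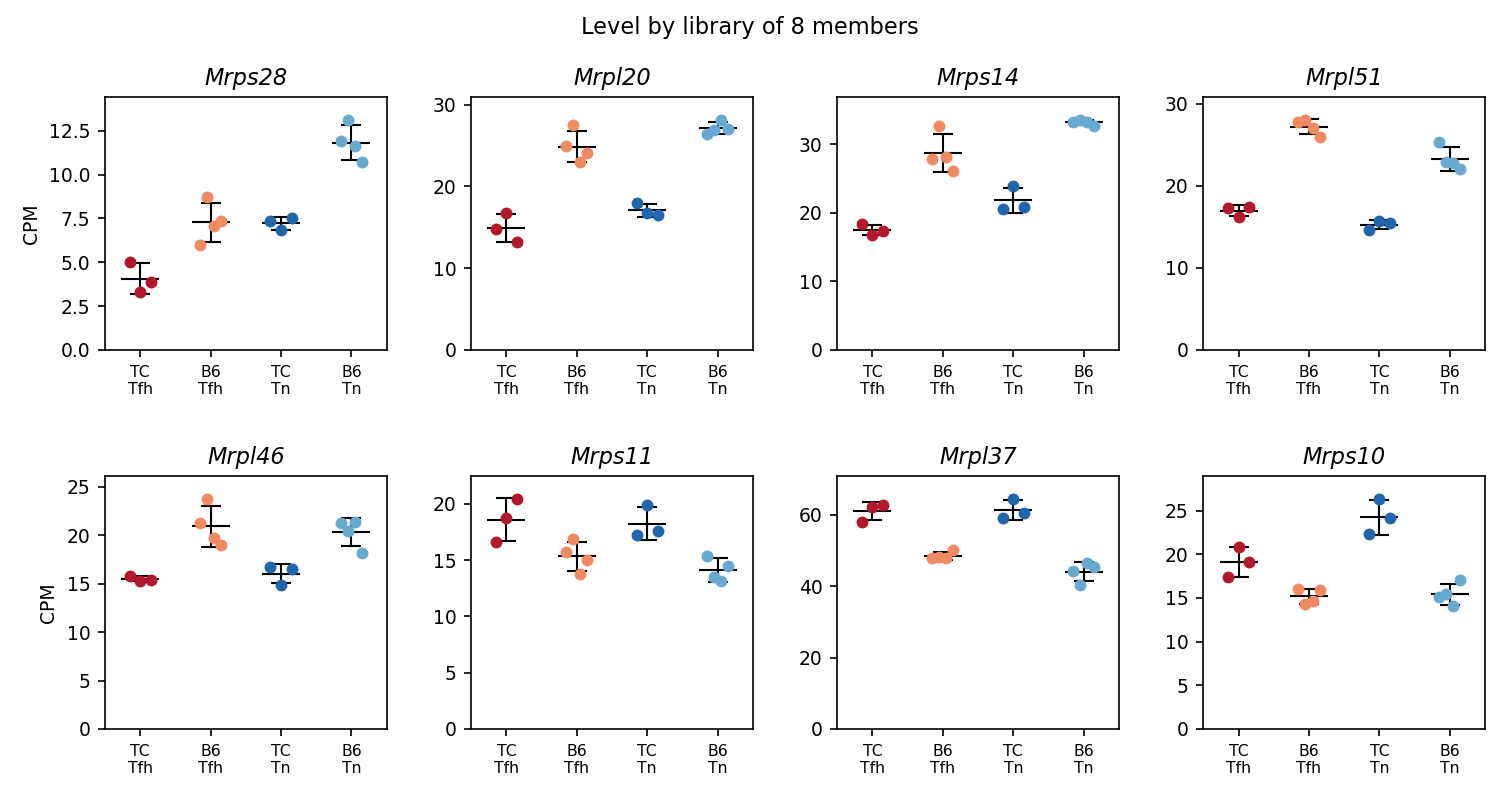
Level in CPM by library (points) of 8 members, with the mean and SD (bars), in TC Tfh, B6 Tfh, TC Tn and B6 Tn. Mrps28, Mrpl20, Mrps14, Mrpl51 and Mrpl46 lie lower in TC, and Mrps11, Mrpl37 and Mrps10 lie higher; only for Mrps11 in Tfh do the points of the strains overlap.

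Mrps11 and Mrpl46 moved in opposite directions although they start next to each other. Mrps11 (the counterpart of bacterial S11) lies at chr7:78783119-78792989 on the plus strand and Mrpl46 (mitochondria-specific, large subunit) at chr7:78775236-78783531 on the minus strand, so that their annotated ends share 413 bases (GRCm38). Mrps11 had 16.6, 18.7 and 20.4 CPM in TC Tfh, against 15.7, 16.9, 13.8 and 15 CPM in B6 Tfh. Naive cells had 17.2, 19.9 and 17.6 CPM in TC, against 15.4, 13.5, 13.1 and 14.5 CPM in B6. The strains overlapped in Tfh and were apart in Tn. The log2 fold change was 0.27 ± 0.09 in Tfh (edgeR adjusted p = 0.0216) and 0.34 ± 0.09 in Tn (edgeR adjusted p = 0.00444). Without TC Tfh 4 the Tfh value of Mrps11 was 0.21 and no longer passed (edgeR adjusted p = 0.0935).

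Mrpl46 had 15.8, 15.3 and 15.4 CPM in TC Tfh, against 21.2, 23.7, 19.7 and 19 CPM in B6 Tfh. The Tn levels were 16.7, 14.9 and 16.5 CPM in TC, against 21.2, 20.4, 21.4 and 18.2 CPM in B6. No TC library reached a B6 library, at a log2 fold change of -0.44 ± 0.09 in Tfh (edgeR adjusted p = 0.000492) and -0.37 ± 0.09 in Tn (edgeR adjusted p = 0.00153). The promoter windows of this pair, at chr7:78782881-78783180 (plus strand) and chr7:78783040-78783339 (minus strand), share 141 bases and are shown with that of Mrpl37, at chr4:107066817-107067116 (minus strand), as windows of genes that went opposite ways. Capitals mark AAGATGG or its reverse complement, a core site of the factor YY1 (RefSeq, GRCm38.p6).
Mrps11: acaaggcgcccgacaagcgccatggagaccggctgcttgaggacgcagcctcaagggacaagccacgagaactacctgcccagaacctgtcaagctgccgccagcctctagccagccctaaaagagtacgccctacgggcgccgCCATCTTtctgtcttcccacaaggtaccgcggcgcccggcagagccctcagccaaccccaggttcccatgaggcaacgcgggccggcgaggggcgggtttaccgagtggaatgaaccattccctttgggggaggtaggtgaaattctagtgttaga
Mrpl46: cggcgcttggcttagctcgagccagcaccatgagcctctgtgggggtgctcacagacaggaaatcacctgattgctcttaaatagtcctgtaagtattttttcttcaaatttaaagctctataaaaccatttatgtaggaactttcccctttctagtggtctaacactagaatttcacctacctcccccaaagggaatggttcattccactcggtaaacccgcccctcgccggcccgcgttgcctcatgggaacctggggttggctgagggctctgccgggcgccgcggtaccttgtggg
Mrpl37: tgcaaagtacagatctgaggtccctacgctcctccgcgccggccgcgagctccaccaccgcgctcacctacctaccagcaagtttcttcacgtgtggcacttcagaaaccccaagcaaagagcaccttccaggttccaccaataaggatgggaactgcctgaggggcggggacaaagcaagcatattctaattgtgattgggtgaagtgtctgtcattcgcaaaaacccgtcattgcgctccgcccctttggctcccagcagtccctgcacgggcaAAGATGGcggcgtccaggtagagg

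Promoter windows were found for 68 of the 77 members. A gene was counted if any of its windows held the motif, and Mrpl2, Mrpl48 and Mrps16 had 3, 4 and 2 windows. The ETS core CCGGAAG was in 25 of the 68 (36.8%), against 20.8% of the tested genes and 9.93% of all genes with a window. The YY1 core AAGATGG was in 13 (19.1%), against 8.72% and 7.28%, and the NRF1 core GCGCATG was in 8 (11.8%), against 8.2% and 4.41%. None of the 3 motifs contains another, and each was searched on both strands. Among members lower in TC in both cell types, 17 of the 43 with a window (39.5%) held the ETS core. Among those higher in both 0 of 4 did, and among the other tested members 7 of 20 (35%) did. The YY1 core was held by 9, 2 and 2 members of these sets, and the 2 of the higher set were Mrpl37 and Mrps11. A match is a run of letters and was not linked to binding here.

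The Sle1, Sle2 and Sle3 regions lie on chromosomes 1, 4 and 7. Of the 15 tested members on these chromosomes, 10 were lower and 2 were higher in TC in Tfh, and likewise in Tn, with median log2 fold changes of -0.39 and -0.37. Mrpl20, Mrps14, Mrpl17, Mrps12, Mrpl44, Mrpl46, Mrpl48, Mrpl50, Mrpl15 and Mrpl30 were the lower ones, and Mrpl37 and Mrps11 the higher ones. The calls of Mrpl15 were lost without B6 Tfh 2 or TC Tfh 4 in Tfh (edgeR adjusted p 0.0746 to 0.108) and without B6 Tn 3 or TC Tn 1 in Tn (0.0571 to 0.0621). Of the 61 members on other chromosomes, 44 were lower and 3 higher in TC Tfh (median -0.33), and 42 were lower and 4 higher in TC Tn (median -0.31). Of all genes tested on each of chromosomes 1, 4 and 7, 23.1% to 30.6% were lower and at most 29.2% higher in TC Tfh. In TC Tn, 21.8% to 28.6% of them were lower and at most 28.7% higher. Which of the 15 lie inside the introgressed regions is not in the files, and effects of NZM2410 alleles on alignment to the B6 genome were not tested.

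Short transcripts were lower in TC across the whole table, and members are short, with a median length of 1148 bases against 2324 bases over all genes tested. In each length class a larger share of the members than of all genes was lower in TC. Among transcripts under 1000 bases, 26 of 33 members were lower in TC Tfh (78.8%, median log2 fold change -0.36), against 37.5% of all such genes (median -0.22). From 1000 to under 2000 bases, 18 of 25 members were lower (72.0%, median -0.27), against 33% of all (median -0.11). From 2000 bases, 10 of 18 members were lower (55.6%, median -0.25), against 19.2% of all (median 0.05). In Tn the member medians were -0.36, -0.35 and -0.26 in these classes, against -0.20, -0.09 and 0.04 over all genes. With offsets for length and GC content in edgeR, 45 members were lower in TC Tfh, 43 of them among the 54, and 47 were lower in TC Tn, each of them among the 52. Of the 13427 genes tested, 3499 were lower in TC Tfh and 3744 in TC Tn under these offsets.

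**Figure D4:**
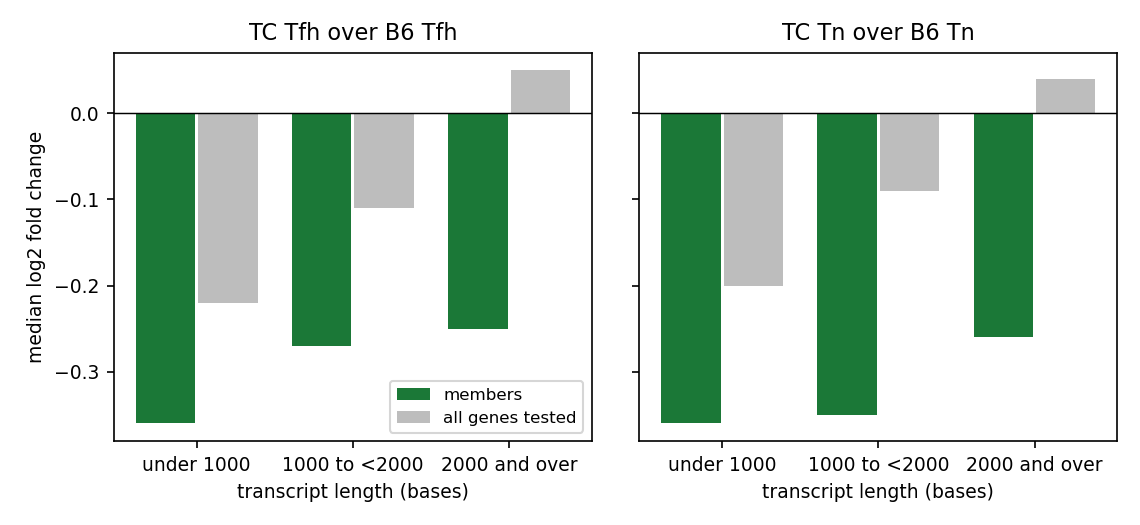
Median log2 fold change, TC Tfh over B6 Tfh (left) and TC Tn over B6 Tn (right), in 3 classes of transcript length, for members (green) and all genes tested (grey). The bar of the members is lower than that of all genes in each class, from -0.36 against -0.22 to -0.25 against 0.05 in Tfh.

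The second comparison is of Tfh with Tn within each strain. In TC Tfh, 37 of 76 members were lower and 4 were higher than in TC Tn, against 32.4% and 33.7% of all genes tested (edgeR, adjusted p under 0.05). In B6 Tfh, 40 were lower and 4 were higher than in B6 Tn, against 33.3% and 36.9% of all genes. The median log2 fold change was -0.18 over the members in both strains, with -0.01 over all genes in TC and 0.02 in B6. Without overlap, 40 members had TC Tfh lower and 5 had it higher, against 35.6% and 35.7% of all genes; in B6 there were 31 and 2, against 30.1% and 33.8%. The members lower in Tfh in both strains numbered 34, which is 91.9% of the TC list and 85.0% of the B6 list, against 86.0% and 83.5% for all genes. Scaled to library totals, 23 members were lower and 6 higher in TC Tfh, and 23 were lower and 10 higher in B6 Tfh, while the median of all genes moved to 0.10 in TC and 0.15 in B6. Of the 13427 genes tested, 3371 were then lower and 5369 higher in TC Tfh, and 3222 and 6136 in B6 Tfh. Leaving out B6 Tfh 4 or B6 Tn 4 left 2 members higher in B6 Tfh, against 4868 of 13386 and 4803 of 13399 genes tested.

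A larger share of the small-subunit members was lower in Tfh. Of the 27 tested, 18 were lower and 1 was higher in Tfh in each strain, with median log2 fold changes of -0.29 in TC and -0.32 in B6. Of the 49 large-subunit members, 19 were lower and 3 higher in TC Tfh (median -0.16), and 22 were lower and 3 higher in B6 Tfh (median -0.14). The difference between the subunits was not tested. Over all genes tested, 32.4% were lower and 33.7% higher in TC Tfh than in TC Tn, and 33.3% and 36.9% in B6. With offsets for length and GC content, 22 members were lower and 10 higher in TC Tfh, and 30 were lower and 9 higher in B6 Tfh. Of the 13427 genes tested, 4293 were lower and 4935 higher in TC Tfh under the same offsets, and 4460 and 5218 in B6 Tfh. The median log2 fold change was then -0.08 over the members and 0.03 over all genes in TC, and -0.07 and 0.05 in B6.

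**Figure D5:**
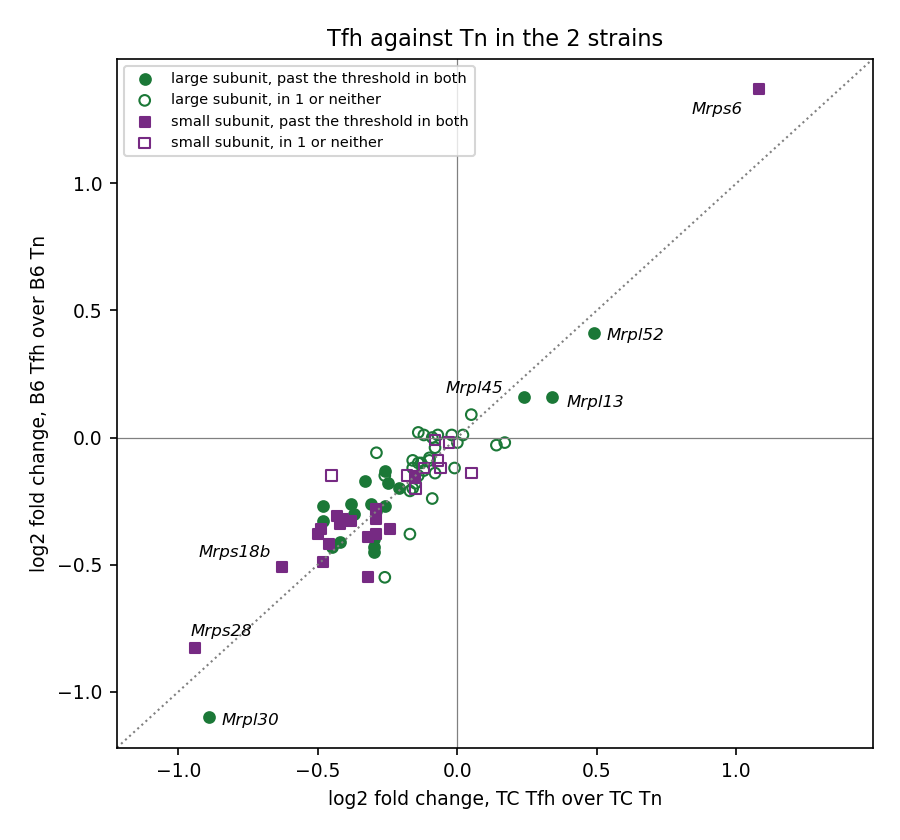
Log2 fold change of each tested member, TC Tfh over TC Tn (x axis) and B6 Tfh over B6 Tn (y axis); circles are large-subunit and squares small-subunit members, filled where both comparisons passed the test in edgeR, and the dotted line marks equal values. Mrps6 stands alone at the upper right, and Mrpl30 and Mrps28 at the lower left.

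Mrps6, the counterpart of bacterial S6 in the small subunit, was the member furthest above the rest in Tfh. It had 33, 31.1 and 34.9 CPM in TC Tfh, against 14.7, 15.9 and 12.9 CPM in TC Tn. In B6 it had 42.7, 45.8, 44.0 and 42.3 CPM in Tfh, against 15.5, 15.4, 16.7 and 14.2 CPM in Tn. Every Tfh library was far above every Tn library, by a log2 fold change of 1.08 ± 0.08 in TC (2.12-fold, edgeR adjusted p = 3.44e-09) and 1.37 ± 0.07 in B6 (2.58-fold, edgeR adjusted p = 8.24e-12). Between the strains Mrps6 was lower in TC Tfh (log2 fold change -0.41 ± 0.07, edgeR adjusted p = 0.000211), while TC Tn over B6 Tn was -0.13 ± 0.08 (edgeR adjusted p = 0.225).

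Slc5a3, a myo-inositol transporter gene, lies within Mrps6 on the same strand. It averaged 98.6 ± 4.47 CPM in TC Tfh, 67.8 ± 11.5 CPM in B6 Tfh, 35.9 ± 6.14 CPM in TC Tn and 17.3 ± 3.34 CPM in B6 Tn (SD, n = 3, 4, 3 and 4). It was higher in Tfh in both strains, as Mrps6 was, but higher in TC Tfh than in B6 Tfh (log2 fold change 0.53, edgeR adjusted p = 0.0115), where Mrps6 was lower. How counts were split between these genes is not given in the sources used here.

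Mrpl30, the counterpart of bacterial L30, was the lowest member in B6 Tfh over B6 Tn and came after Mrps28 in TC. It had 29.5, 26.4 and 31.0 CPM in TC Tfh, against 51.2, 49.2 and 49.0 CPM in TC Tn. In B6 it had 29.9, 35.3, 33 and 34.9 CPM in Tfh, against 65.7, 64.5, 70.5 and 60.0 CPM in Tn. No Tfh library came near a Tn library, and Tfh was 1.85-fold lower in TC (log2 fold change -0.89 ± 0.08, edgeR adjusted p = 2.14e-08) and 2.15-fold lower in B6 (-1.10 ± 0.07, edgeR adjusted p = 6.88e-11). Between the strains it was lower in TC Tn (-0.42 ± 0.07, edgeR adjusted p = 9.31e-05). In Tfh the strain value of -0.21 ± 0.08 had an edgeR adjusted p of 0.0332. That p rose to between 0.07 and 0.215 without B6 Tfh 2, B6 Tfh 3, B6 Tfh 4, TC Tfh 1 or TC Tfh 2. In limma voom with the mouse as a block, the strain value was -0.20 (adjusted p = 0.0595). With length and GC offsets that value was -0.03 (edgeR adjusted p = 0.708).

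The promoter windows of Mrps6, at chr16:92058086-92058385, and Mrpl30, at chr1:37890227-37890526, both on the plus strand, are shown as those of the highest and the lowest member in B6 Tfh over B6 Tn. Neither holds any of the 3 motifs. That of Mrpl52, at chr14:54426659-54426958 on the plus strand, is shown with them because it holds the ETS core at 2 places, in capitals as the reverse complement, and the YY1 core once, also in capitals (RefSeq, GRCm38.p6).
Mrps6: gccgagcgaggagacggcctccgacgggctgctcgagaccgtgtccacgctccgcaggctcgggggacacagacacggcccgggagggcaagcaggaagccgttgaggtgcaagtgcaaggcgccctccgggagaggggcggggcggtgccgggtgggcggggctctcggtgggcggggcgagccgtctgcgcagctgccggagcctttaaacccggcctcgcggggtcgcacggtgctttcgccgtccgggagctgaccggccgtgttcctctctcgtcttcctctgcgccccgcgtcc
Mrpl30: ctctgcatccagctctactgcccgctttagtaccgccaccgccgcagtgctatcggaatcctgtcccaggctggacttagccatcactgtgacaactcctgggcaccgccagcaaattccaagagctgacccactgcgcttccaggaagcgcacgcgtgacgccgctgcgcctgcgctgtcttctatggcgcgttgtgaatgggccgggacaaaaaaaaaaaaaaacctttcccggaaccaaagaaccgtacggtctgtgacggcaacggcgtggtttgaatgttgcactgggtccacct
Mrpl52: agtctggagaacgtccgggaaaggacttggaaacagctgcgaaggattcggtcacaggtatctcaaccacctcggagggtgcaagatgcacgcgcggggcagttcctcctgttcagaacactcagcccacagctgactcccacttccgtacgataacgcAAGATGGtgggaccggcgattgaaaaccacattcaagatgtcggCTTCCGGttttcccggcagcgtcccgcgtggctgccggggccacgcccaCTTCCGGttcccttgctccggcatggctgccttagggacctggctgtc

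Mrpl52 had 43.6, 39.5 and 44.5 CPM in TC Tfh, against 27.8, 28.2 and 28.3 CPM in TC Tn. In B6 it had 57.2, 65.6, 55.3 and 57.9 CPM in Tfh, against 39.9, 44.7, 42.3 and 34.5 CPM in Tn. Tfh libraries were above Tn libraries of the same strain, and TC libraries below B6 libraries of the same cell type except that TC Tfh overlapped B6 Tn. The log2 fold change of Tfh over Tn was 0.49 ± 0.09 in TC (edgeR adjusted p = 9.66e-05) and 0.41 ± 0.07 in B6 (edgeR adjusted p = 6.39e-05). That of TC over B6 was -0.48 ± 0.08 in Tfh and -0.56 ± 0.08 in Tn.

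Mrpl13 and Mrpl45 were the other members higher in Tfh in both strains. Mrpl13 is the counterpart of bacterial L13, and Mrpl45 lies near the exit of the peptide tunnel. Mrpl13 had log2 fold changes of 0.34 ± 0.08 in TC and 0.16 ± 0.07 in B6, and Mrpl45 of 0.24 ± 0.08 in TC and 0.16 ± 0.06 in B6. The B6 calls were narrow: that of Mrpl13 (edgeR adjusted p = 0.0419) was lost without any 1 of B6 Tfh 1, 2 or 4, B6 Tn 1, 3 or 4 or TC Tn 1 (0.052 to 0.109). That of Mrpl45 (edgeR adjusted p = 0.0281) was lost without B6 Tfh 4, B6 Tn 2 or B6 Tn 4 (0.0652 to 0.0939), and its TC call (edgeR adjusted p = 0.0112) without TC Tn 2 (0.0685). With no filter on low counts, the call of Mrpl13 in B6 (0.0684) and that of Mrpl45 in TC (0.0571) were lost too.

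Mrps28 was low in Tfh as well as in TC. The log2 fold change of Tfh over Tn was -0.94 ± 0.17 in TC (edgeR adjusted p = 8.2e-05) and -0.83 ± 0.13 in B6 (edgeR adjusted p = 1.53e-05). Other small-subunit members lower in Tfh were Mrps18b, at -0.63 ± 0.10 in TC and -0.51 ± 0.09 in B6, and Mrps17, at -0.48 ± 0.07 in TC and -0.49 ± 0.06 in B6, all past the threshold in edgeR. Mrps18b had 13.9, 12.5 and 13.6 CPM in TC Tfh, against 20.8, 18 and 18.6 CPM in TC Tn, and in B6 13.5, 15, 14.6 and 12.5 CPM in Tfh, against 16.9, 18.4, 20 and 17 CPM in Tn. Neither passed the test between the strains, apart from Mrps18b in Tn with length and GC offsets, where it was higher in TC.

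The Mrps18 genes are 3 homologues of bacterial S18, of which Mrps18b and Mrps18c belong to the small subunit and Mrps18a to the large. They differed in pattern. Mrps18a passed the test in no comparison, with log2 fold changes from -0.15 (B6 Tfh over B6 Tn) to 0.06 (TC Tfh over B6 Tfh). Mrps18b was lower in Tfh in both strains. Mrps18c was lower in all 4 comparisons, at -0.44 and -0.40 for TC over B6 in Tfh and Tn and at -0.38 and -0.33 for Tfh over Tn in TC and B6. Its 2 Tfh over Tn calls were lost with offsets for length and GC content.

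Mrpl39, Mrpl47, Mrps2, Mrps18a, Mrps31 and Mrps36 passed the test in none of the 4 comparisons. Whether the strain difference itself depended on cell type was tested as an interaction: 0 of 76 members passed in edgeR, against 2.32% of all genes, and 0 passed in DESeq2. At an unadjusted p under 0.05 there were 2 members, Mrps6 and Mrps10, against 14.6% of all genes. The interaction log2 values ranged from -0.30 (Mrps10) to 0.28, with a median of -0.01.

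Other proteins of the mitochondrial ribosome, with names of another form, were lower in the same comparisons. Of 6 tested (Dap3, Gadd45gip1, Chchd1, Aurkaip1, Ptcd3 and Ict1), 4 were lower and 0 higher in each of the 4 comparisons. Of all genes, 25.5% to 33.3% were lower in these comparisons. Chchd1, a small-subunit protein, had log2 fold changes of TC over B6 of -0.56 ± 0.10 in Tfh and -0.63 ± 0.09 in Tn. Ict1, a peptidyl-tRNA hydrolase built into the large subunit, averaged 25.5 ± 0.824 CPM in TC Tfh, 31.3 ± 3.82 CPM in B6 Tfh, 42.4 ± 2.47 CPM in TC Tn and 49.4 ± 1.13 CPM in B6 Tn. Mrp63, also on that list, is the older name of Mrpl57.

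Genes that serve the same ribosome did not follow one pattern. Of 15 mitochondrial translation factors, 5 were higher and 4 lower in TC Tfh, and 3 were higher and 4 lower in TC Tn. Over all genes tested, 24.2% were higher and 25.5% lower in TC Tfh, and 25.9% and 26.1% in TC Tn. Guf1, an elongation factor homologue, was higher in TC by a log2 fold change of 0.57 ± 0.06 in Tfh and 0.45 ± 0.06 in Tn, and Mtfmt, which formylates the initiator tRNA, by 0.42 ± 0.06 and 0.55 ± 0.06. Of 17 mitochondrial aminoacyl-tRNA synthetases, 8 were higher and 3 lower in TC Tfh (median 0.15), and 9 were higher and 2 lower in TC Tn (median 0.15), so that here more genes were higher in TC than lower. Cars2 and Tars2 were higher by 0.56 ± 0.07 and 0.38 ± 0.07 in Tfh and by 0.54 ± 0.07 and 0.64 ± 0.07 in Tn. In Tfh over Tn, 12 synthetases were lower and 1 higher in TC, and 14 were lower and 1 higher in B6. Of all genes, 32.4% were lower and 33.7% higher in TC, and 33.3% and 36.9% in B6.

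Of 24 assembly and rRNA factors, 8 were lower and 4 higher in TC Tfh, against 25.5% and 24.2% of all genes. In TC Tn 9 were lower and 5 higher, against 26.1% and 25.9%. In Tfh over Tn, 9 were lower and 2 higher in TC, against 32.4% and 33.7% of all genes. In B6 8 were lower and 2 higher, against 33.3% and 36.9%. In B6, Rbfa, which matures the small subunit, was lower in Tfh by a log2 fold change of -1.09 ± 0.05, and the helicase Ddx28 was higher by 1.64 ± 0.10.

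Nearly all cytosolic ribosomal protein genes were lower in the same 4 comparisons. Of 78, 76 were lower and 0 higher in TC Tfh (median log2 fold change -0.48), and 76 were lower and 1 higher in TC Tn (median -0.48). In Tfh over Tn, 78 were lower in TC and 76 in B6, with a median of -1.20 in both strains. These genes made up 2.89 ± 0.0419% of counts in TC Tfh, 4.04 ± 0.475% in B6 Tfh, 6.32 ± 0.312% in TC Tn and 8.72 ± 0.594% in B6 Tn (SD, n = 3, 4, 3 and 4). Over all genes tested, 25.5% were lower and 24.2% higher in TC Tfh, and 26.1% and 25.9% in TC Tn. For Tfh over Tn the shares were 32.4% and 33.7% in TC, and 33.3% and 36.9% in B6.

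Transcripts of the mitochondrial genome showed another pattern. They include messages that this ribosome translates, its ribosomal RNAs and tRNAs. Of 12 tested, 0 were higher and 5 were lower in TC Tfh (median log2 fold change -0.21), against 24.2% and 25.5% of all genes. All 12 were lower in TC Tn (median -0.68), against 26.1% of all genes. The 5 lower in TC Tfh included the tRNAs mt-Tt and mt-Ti, which in TC were near or below the level of 3 counts. They averaged 0.378 and 0.281 CPM in TC Tfh, against 0.88 and 0.784 CPM in B6 Tfh. In Tn they averaged 0.264 and 0.054 CPM in TC, against 1.02 and 0.502 CPM in B6. In Tfh over Tn, 7 of the 12 were higher and 0 lower in TC (median 0.36), against 33.7% and 32.4% of all genes. In B6, 0 were higher and 1 was lower (median -0.07), against 36.9% and 33.3%. The interaction test was passed by 1, against 2.32% of all genes. The ribosomal RNA mt-Rnr1 averaged 133 ± 25.3 CPM in TC Tfh, 147 ± 35.5 CPM in B6 Tfh, 65.5 ± 8.88 CPM in TC Tn and 106 ± 20.9 CPM in B6 Tn (SD, n = 3, 4, 3 and 4). It was lower in TC Tn than in B6 Tn (log2 fold change -0.73 ± 0.22, edgeR adjusted p = 0.0162), and in Tfh the value was -0.15 ± 0.21 (edgeR adjusted p = 0.582). mt-Rnr2 was lower in TC Tn as well (-0.56 ± 0.16, edgeR adjusted p = 0.0114), with -0.29 ± 0.16 in Tfh (edgeR adjusted p = 0.155).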

How the data were processed

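Counts of RNA-seq reads per gene symbol were taken as deposited by the authors, 1 column per library. STAR 2.7, DESeq2 and the build mm10 are named in the submitters' processing notes. Libraries came from a TruSeq Stranded kit, per the labels' protocols. How reads were counted, with or without strand, and on which annotation is not given in the sources used here, so counts of overlapping genes are uncertain. Sequencing batch is not in the labels.

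Groups follow the sample titles. Counts were scaled by TMM, filtered with edgeR 4.0.16 (filterByExpr, minimum count 10) in R 4.3.3, and fitted by robust quasi-likelihood with a mean for each of the 4 groups; p-values were Benjamini-Hochberg adjusted over 13427 genes, and calls taken at 0.05. CPM values use library totals unless TMM is named. Floors cover counting error only. Replicate numbers mark the mouse, since the protocol takes both cell types from each spleen; same-mouse deviations correlated at r = 0.0395 to 0.299. Within groups no pair of libraries looked like duplicates (chi-square per degree of freedom 4.99 to 18.8). Alternatives used DESeq2 1.42.0 and limma 3.58.1, the latter (voom with a correlation within mice) for the strain comparisons with the mouse as a block. The steps were tested on simulated data. Positions, lengths and GC are from GENCODE M21 (GRCm38); promoter windows, 300 bases at the annotated start, are from RefSeq (GRCm38.p6).

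The members, lists and rules were chosen with earlier results of these data known. Named members are, per comparison, the up to 6 highest and 6 lowest called members with a mean of at least 5 CPM, a fixed set (the Mrps18 genes, Mrpl12, Mrps12, Mrps16, Mrps22, Mrpl44, Mrpl3 and Mrps30), the extremes per length, called members on chromosomes 1, 4 and 7, untested members, and up to 3 genes per related list.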

Additional observations from a re-analysis of the deposited data

Results flagged for a closer look

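Among 80 groups of 4 libraries examined (the named members and their summed level), 6 had a library set apart from the other 3 by Dixon's criterion; chance alone flags about 1 group in 20. Mrpl13 in B6 Tfh 3 was at 28 CPM, below the others at 31.8 to 32.3 CPM. Mrpl49 in B6 Tn 1 was at 37.1 CPM, above the others at 33.7 to 34 CPM. Mrps5 in B6 Tn 3 was at 37.0 CPM, below the others at 41.7 to 41.8 CPM, and without that library its higher level in TC Tn no longer passed the test. Mrps24 in B6 Tfh 2 was at 31.1 CPM, above the others at 24 to 25 CPM, and Mrps26 in the same library was at 43.6 CPM, above the others at 40.2 to 40.5 CPM. The summed level of all 77 members in B6 Tn 4 was 2160 CPM, below the others at 2244 to 2253 CPM and above the TC Tn libraries at 1926 to 1974 CPM.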

How the results depend on the processing

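The alternatives run were DESeq2, other scalings, no filter, a count minimum of 50 and only the groups compared. Others were the mouse as a replicate block, offsets for length and GC content, and single libraries left out. Over these, the median log2 fold change of the members minus that of all genes stayed within narrow bounds. For TC over B6 it was between -0.36 and -0.20 in Tfh and between -0.33 and -0.25 in Tn. For Tfh over Tn it was between -0.22 and -0.12 in TC and between -0.24 and -0.12 in B6. Fitting only the groups compared lost 7 member calls in TC Tfh over B6 Tfh, 4 in TC Tfh over Tn and 1 in B6 Tfh over Tn. A count minimum of 50 lost 4 in TC Tn over B6 Tn. It added 1 in TC Tfh over B6 Tfh and 1 in TC Tfh over Tn. The replicate block was fitted in limma voom between the strains and in edgeR for Tfh over Tn. With it, 52 members were lower and 6 higher in TC Tfh, against 3420 and 3312 of the 13427 genes tested. In TC Tn there were 50 and 6, against 3452 and 3421. For Tfh over Tn there were 37 and 4 in TC, against 4615 and 4743, and 42 and 4 in B6, against 4697 and 5188. Between the strains, limma voom with the block did not call Mrpl30 and Mrps33 in Tfh or Mrps24 and Mrps25 in Tn (adjusted p 0.0501 to 0.0595). Mrps5 in TC Tfh over B6 Tfh (limma) and Mrpl21 and Mrps10 in B6 Tfh over Tn (edgeR) came past the threshold (0.0095 to 0.0489). No other call changed. Between the strains, the block and the change of method cannot be told apart. Some counts moved by over 1.5 times. For Tfh over Tn, scaling to library totals gave 23 lower in TC and 10 higher and 23 lower in B6. Length and GC offsets gave 10 higher and 22 lower in TC and 9 higher in B6, and with the replicate block as well 12 higher and 23 lower in TC and 10 higher in B6. Of the 13427 genes tested, the offsets alone gave 4935 higher and 4293 lower in TC and 5218 higher in B6. With the block as well, 5164 were higher and 4533 lower in TC, and 5454 were higher in B6. Without a filter 2 members were higher in TC Tfh over B6 Tfh, against 2916 of 23821 genes, the lower count of members staying within 1.5 times. Leaving out 1 library gave 2 to 4 higher in B6 Tfh over Tn and moved no other count that far. The cause was not tested.

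Changes of sign that involved a called value occurred in Tfh over Tn and not between the strains. Under length and GC offsets the calls of Mrpl20 and Mrpl40 in B6 and of Mrpl20 and Mrpl33 in TC were lost at values of 0.05, 0.00, 0.03 and 0.05. Mrpl4 (-0.11), Mrpl10 (0.19), Mrpl42 (0.20) and Mrps21 (0.32) turned and passed in B6, and Mrpl10 (0.17), Mrpl41 (0.26), Mrpl42 (0.20) and Mrps21 (0.36) in TC. The replicate block added Mrpl17 in B6 (0.16) and Mrpl40 in TC (0.18). With library totals, Mrpl24 lost its B6 call at 0.01 and Mrpl10 passed at 0.13. The other changes of sign were in values that did not pass. Under length and GC offsets, with and without the replicate block, Mrps18a was at 0.03 in B6 and 0.12 in TC Tfh over Tn, Mrps18b was at 0.12 in TC Tfh over B6 Tfh, and Mrpl44 was at 0.04 in B6 and, without and with the block, 0.01 and 0.02 in TC Tfh over Tn. With library totals Mrpl44 was at 0.10 in B6 and 0.03 in TC and Mrpl3 at 0.03 in TC, Tfh over Tn. Leaving out 1 library gave a range of -0.08 to 0.03 for Mrpl44 in B6 Tfh over Tn, -0.04 to 0.04 for Mrpl3 in TC Tfh over B6 Tfh, and -0.01 to 0.10 for Mrps18a and -0.02 to 0.11 for Mrps18b in TC Tn over B6 Tn. With 3 or 4 libraries a group, p-values reflect the spread between these libraries, pooled over the 4 groups. Outside the block alternative, the fit treated all 14 libraries as independent, although each mouse gave both cell types. The pairing by mouse was thus not used there for Tfh over Tn or the interaction. Over all genes, 312 passed the interaction test without the block and 736 with it. The depth limit is 3 counts, which among the members only Mrpl53 approached.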

Other observations

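The 4 rows named as pseudogenes were nearly empty: Mrpl23-ps1 had 0 to 10 counts per library, Mrps36-ps1 had 0 to 5, Mrpl48-ps had 0 to 2 and Mrps36-ps2 had 0 to 1. An annotated gene overlaps 41 of the 77 members, on the opposite strand for 35 and on the same strand for 13. Of the 40 overlapped members tested, 32 were lower and 3 higher in TC Tfh, and 30 were lower and 2 higher in TC Tn. Of the 36 members without an overlap, 22 were lower and 2 higher in TC Tfh, and 22 were lower and 4 higher in TC Tn. Over all genes tested, 25.5% were lower and 24.2% higher in TC Tfh, and 26.1% and 25.9% in TC Tn. The partners went their own way in places: Mapk8ip3, opposite Mrps34, averaged 335 CPM in TC Tfh, 202 CPM in B6 Tfh, 368 CPM in TC Tn and 188 CPM in B6 Tn, whereas Mrps34 was lower in TC in both cell types.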
